A study of Danio rerio with 24 samples.

Results

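The cytochrome P450 genes of the zebrafish were followed over 24 one-colour arrays: every gene on the array whose symbol opens with cyp and a digit, with the symbol found from the accession printed beside each probe. This rule took 65 genes, carried by 138 probes, out of 12858 genes with a symbol, and each gene was read from 1 probe, the one with the highest mean over the 24 arrays. Liver, kidney and muscle were taken from wild-type adult zebrafish of 9 months on a normal diet, 3 h after an injection into the body cavity of 10 µg of lipopolysaccharide (LPS, the endotoxin of Gram-negative bacteria) or of the same volume of phosphate-buffered saline (PBS). The 6 groups (liver PBS, liver LPS, kidney PBS, kidney LPS, muscle PBS and muscle LPS) held 4 arrays each, every array a pool of 3 fish, and all groups shared the strain, age, diet, time point and injection. The sex of the fish is not given in the sources used here. The questions were in which tissue each P450 gene is expressed, and which of them LPS lowers.

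Cytochrome P450 enzymes are haem proteins that put an oxygen atom into their substrates with electrons passed on by a reductase. Families 1, 2 and 3 are known mainly for the oxidation of foreign compounds and family 4 for that of fatty acids, while other families make or break down cholesterol, bile acids, steroid hormones, retinoic acid and vitamin D. The liver is the organ best known for them in vertebrates, and inflammation is known to lower several liver P450 enzymes in mammals.

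Every value below is a relative signal, the log2 of the processed intensity minus the 75th percentile of the same array. A difference of 1 is a factor of 2. Values of probes of different genes are not set against each other, apart from *cyp46a1.1* with *cyp46a1.2* and *cyp3c1* with *cyp3c3*. The 65 genes comprised 28 of family 2, 12 of sterol and bile acid metabolism, 6 of steroid hormone synthesis, 5 of family 1, 5 of vitamin A and D metabolism, 4 of family 3, 4 of family 4 and *cyp20a1*, whose substrate is not known. Between 39.4% and 84.8% of the spots of an array were well above background, and no spot was saturated. The hepatocyte markers (5 of 8 found on the array) had a mean relative signal of 4.92 to 7.43 on 7 of the 8 liver arrays and of 2.18 on liver LPS array 2, but also of 6.29 on kidney PBS array 2, 5.49 on kidney LPS array 2, 4.82 on muscle PBS array 2 and 5.1 on muscle LPS array 4. The oocyte markers (9 of 10 found) ranged from 0.11 to 3.94 in liver PBS, from -0.85 to 0.03 in liver LPS, from -2.88 to 4.04 in kidney PBS, from 0.55 to 3.29 in kidney LPS, from 0.27 to 4.30 in muscle PBS and from 3.18 to 4.25 in muscle LPS. Kidney PBS arrays 1 to 3 shared a slide and a scan day with no other array, so slide, scan day and group cannot be told apart for them. No slide held arrays of different tissues, so tissue and slide cannot be told apart in any tissue comparison. The muscle arrays also shared no scan day with the liver or kidney arrays, so scan day cannot be told apart from muscle either. On these 3 arrays the lowest relative signal of a spot well above background was -7.49 to -4.39, against -3.06 on kidney PBS array 4 and -3.72 to -1.72 on the liver arrays. The liver pools also carried intestine markers (4 of 4 found, 2.82 to 5.38 in liver against -1.11 or lower elsewhere) and exocrine pancreas markers (4 of 7 found, 4.76 to 8.05 in liver, up to 5.19 in muscle and up to 1.24 in kidney). Kidney tubule markers (7 of 8) were at 0.46 to 3.04 on the kidney arrays and below 0 on all others. Leucocyte markers (6 of 8) were at 1.09 to 3.69 on the kidney arrays and reached 1.22 on liver LPS array 3. Skeletal muscle markers (7 of 8) were at 4.92 to 7.63 on the muscle arrays and at 0.06 or lower on the liver arrays. On kidney PBS arrays 1 to 4 they were at 4.22, -1.85, -1.46 and 4.49, and on the kidney LPS arrays at -0.55 to 3.33. The part of muscle RNA in the kidney values was not tested. In bulk tissue, fewer cells of a type and less RNA per cell cannot be told apart.

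In the PBS fish most P450 genes had their highest mean in liver. Among the PBS arrays 47 of the 65 genes had their highest mean in liver, 5 in kidney and 13 in muscle, a count not made over all genes. The 47 include *cyp19a1b*, *cyp2k18* and *cyp39a1*, which were not well above background on any liver PBS array. With limma on the 12 PBS arrays and Benjamini-Hochberg adjustment over all 43603 probes, 9 genes were higher in liver than in kidney (2.8% of all 12858 genes were) and 2 were lower (2.83% of all genes). Against muscle, 27 were higher in liver (4.88% of all genes) and 4 lower (5.4%). Between kidney and muscle, 6 were higher in kidney (3.34% of all genes) and 3 lower (4.08%). The median difference of the 65 genes was 1.47 for liver against kidney (0.04 over all genes), 1.58 for liver against muscle (-0.04 over all genes) and 0.28 for kidney against muscle (-0.14 over all genes). By role, the genes called higher in liver than in muscle were 15 of 28 in family 2, 4 of 4 in family 3, 3 of 4 in family 4, 4 of 12 in sterol and bile acid metabolism, 1 of 5 in family 1, and none of the 6 steroid hormone genes or the 5 of vitamin A and D. In liver, 9 genes passed against both other tissues (1.92% of all genes did): *cyp2k19*, *cyp2x10.2*, *cyp3a65*, *cyp3c4*, *cyp46a1.1*, *cyp46a1.2*, *cyp46a1.5*, *cyp4v2a* and *cyp4v2b*. *cyp4f3* passed against both in kidney (1.11% of all genes did), and *cyp7a1*, *cyp26b1* and *cyp26c1* in muscle (2.61%).

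**Figure D1:**
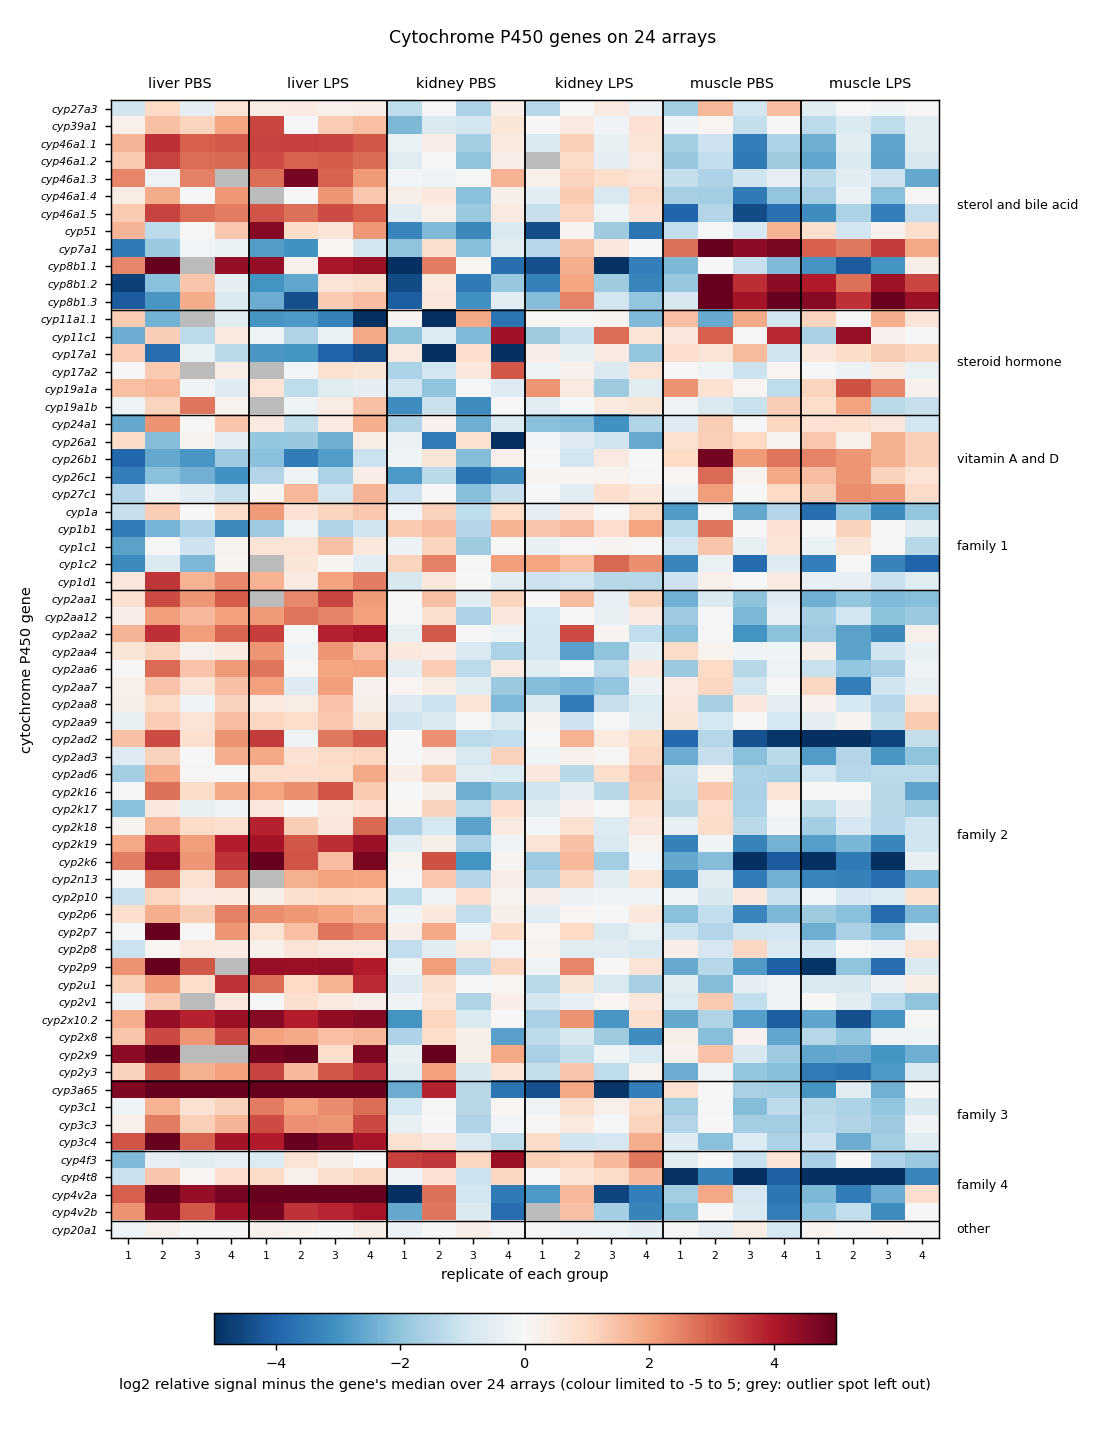
The 65 genes in rows, ordered by role, on the 24 arrays in columns, with the relative signal minus the median of the gene in colour (log2). Most of families 2, 3 and 4 are brightest on the liver arrays, where 47 of the 65 genes have their highest PBS mean, while the genes of vitamin A metabolism and *cyp7a1* are brightest on the muscle arrays.

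The replicate numbers were taken to pair the tissues of the PBS fish, which no label states. Over all genes, arrays of the same number deviated together from their group means in each pair of tissues (correlations from 0.12 to 0.71, all 4 above 0.1 in each of the 3 pairs). Kidney PBS and kidney LPS arrays, from different fish, did so too (0.29 to 0.64), so this rule cannot show that a number stands for a pool. Of the 4 liver PBS arrays, 2 correlated best with the kidney array of their own number. Among the LPS arrays the same-number correlations of liver and kidney ran from -0.50 to -0.01. With the replicate number as a block, 33 genes were higher and 4 lower in liver than in kidney (13.3% and 8.11% of all genes), 33 higher and 7 lower in liver than in muscle (8.2% and 8.94%), and 16 higher and 7 lower in kidney than in muscle (6.7% and 8.16%). The 33 over kidney include *cyp19a1b*, *cyp2k18* and *cyp39a1*, which were not well above background on any liver PBS array. Under the block 28 genes passed against both other tissues in liver (4.83% of all genes did), 2 in kidney (*cyp1c2* and *cyp4f3*, 3% of all genes) and 6 in muscle (4.43% of all genes), which were *cyp26b1*, *cyp26c1*, *cyp27c1*, *cyp7a1*, *cyp8b1.2* and *cyp8b1.3*. Of the 28, *cyp39a1* was not well above background on any liver or muscle PBS array. The counts without the block moved with single pools. For liver against kidney, the 11 calls became 5 without liver PBS array 2, 6 without liver PBS array 3, 4 without liver PBS array 4, 6 without kidney PBS array 1 and 20 without kidney PBS array 4, and only *cyp3a65*, *cyp3c4* and *cyp4f3* were called in each of the 12 fits that left out 1 array. The calls over all probes moved as well, from 2151 to 1357, 1205, 1203, 1136 and 9028 in the same order. For kidney against muscle, the 9 calls became 4 without kidney PBS array 1, kidney PBS array 2, muscle PBS array 3 or muscle PBS array 4, 5 without kidney PBS array 4 and 14 without kidney PBS array 3, and *cyp26c1*, *cyp4f3*, *cyp4t8* and *cyp7a1* were called in each of the 12 fits. Over all probes 2894 calls became 1880, 1861, 2543, 2008, 2714 and 3495. For liver against muscle, 22 of the 31 calls were made in every such fit.

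The LPS arrays came from other fish. On them, 32 genes were higher and 5 lower in liver than in kidney (11.2% and 14% of all genes), 43 higher and 10 lower in liver than in muscle (30.5% and 27.5%), and 23 higher and 7 lower in kidney than in muscle (15.5% and 14.6%). All 11, 31 and 9 genes called among the PBS arrays were called again with the same sign. Over all genes this held for 80.4% of 724, 86.2% of 1321 and 88.5% of 954. Liver was above both other tissues for 29 genes on the LPS arrays (9.27% of all genes), among them all 9 named above. The 29 also include *cyp2k18*, which was not well above background on any LPS array. Liver LPS array 2 had hepatocyte markers at 2.18 and intestine markers at 5.30. There *cyp46a1.1* read 4.29 (3.96 to 4.25 on the other liver LPS arrays) and *cyp3c4* 1.23 (-0.11 to 0.56). *cyp46a1.2* read 4.12 (4.03 to 4.47), *cyp4v2a* 3.39 (3.46 to 3.97) and *cyp4v2b* 2.53 (2.72 to 3.68). *cyp2x10.2* read 2.62 (3.14 to 3.30), *cyp2k19* 2.63 (3.22 to 3.81) and *cyp46a1.5* 1.08 (1.33 to 1.61). The part of intestine RNA in these liver values was not tested.

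*cyp3a65*, the zebrafish counterpart of the CYP3A drug oxidases of mammals, had the largest liver over kidney difference of the 65 genes. It read 3.38, 5.72, 4.5 and 5.13 on the 4 liver PBS arrays. The kidney PBS arrays gave -3.71, 2.61, -2.62 and -4.90, and the muscle PBS arrays -0.46, -1.25, -2.87 and -2.97. Every liver array lay above every kidney and muscle array, and kidney PBS array 2, the one with hepatocyte markers at 6.29, stood far above the other kidney arrays. The difference was 6.84 ± 1.3 (SE) against kidney (limma, adjusted p = 0.00841) and 6.57 ± 1.3 against muscle (adjusted p = 0.00717). On the LPS arrays the same gene was at 5.49, 5.32, 5.58 and 4.72 in liver and at -5.59, 0.71, -6.08 and -4.69 in kidney, the second of which carried hepatocyte markers at 5.49. On liver LPS array 2 *cyp3a65* was at 5.32 with hepatocyte markers at 2.18 and intestine markers at 5.30. The part of hepatocyte RNA in the kidney values and of intestine RNA in the liver values was not tested. *cyp3c4*, of a subfamily named in fish, showed no such kidney array: it read -0.93, 0.97, -1.12 and 0.08 in liver PBS against -3.31, -3.54, -4.83 and -5.38 in kidney PBS and -4.74, -6.17, -4.78 and -5.66 in muscle PBS. Liver did not overlap with either other tissue and was higher by 4.01 ± 0.62 than kidney (adjusted p = 0.00198) and by 5.08 ± 0.62 than muscle (adjusted p = 0.000442). *cyp3c4* was well above background on only 1 of 4 muscle PBS arrays, so the size of its muscle difference is uncertain. The other members of family 3, *cyp3c1* and *cyp3c3*, were higher in liver than in muscle by 2.18 ± 0.58 (adjusted p = 0.037) and 2.66 ± 0.58 (adjusted p = 0.013). On these probes, their liver over kidney differences among the PBS arrays, 1.38 ± 0.58 and 1.94 ± 0.58, passed with the replicate block (adjusted p = 0.026 and 0.014) and not in the main fit. Another probe of *cyp3c3* was called between liver and kidney without the block.

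Family 2 had 26 of its 28 genes at a higher mean in liver PBS than in kidney PBS and 27 of 28 at a higher mean than in muscle PBS. *cyp2k19* read 1.45, 3.33, 1.61 and 3.45 in liver PBS, -1.05, -0.17, -2.11 and -0.73 in kidney PBS and -3.85, -0.65, -3.83 and -2.85 in muscle PBS. Its liver arrays stood clear of both other tissues, by 3.48 ± 0.76 from kidney (limma, adjusted p = 0.02) and 5.26 ± 0.76 from muscle (adjusted p = 0.0013). *cyp2x10.2* read 0.51, 3.1, 2.55 and 3.02 in liver PBS, -4.30, -0.22, -2.08 and -1.3 in kidney PBS and -3.84, -2.81, -4.05 and -5.41 in muscle PBS. Liver was again above every other array, by 4.27 ± 0.87 over kidney (adjusted p = 0.0132) and 6.32 ± 0.87 over muscle (adjusted p = 0.000945). *cyp2x8*, its neighbour *cyp2x9* and *cyp2k6* were higher in liver than in muscle but missed the threshold against kidney without the block. *cyp2x8* was higher in liver than in kidney by 3.32 ± 0.89 (adjusted p = 0.0522, with the block 0.026), and *cyp2x9*, measured on 2 of 4 liver PBS arrays because outlier spots were left out, by 4.31 ± 1.48 (adjusted p = 0.0786, with the block 0.022). *cyp2k6* was not well above background on any muscle PBS array, and its liver signal (mean 1.89 against -4.77, adjusted p = 0.00239) was at least 57.7-fold that of muscle, a bound that puts the muscle arrays at the lowest signal seen among spots well above background. The same bound was 8.82-fold for *cyp2aa1* (mean -0.95 in liver PBS against -4.73 in muscle PBS, adjusted p = 0.00371).

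*cyp4v2a* and *cyp4v2b*, related to the human fatty acid hydroxylase CYP4V2, followed *cyp3a65* in which kidney arrays were high. *cyp4v2a* read 1.33, 4.12, 2.73 and 3.11 in liver PBS and -6.93, 1.11, -2.63 and -5.20 in kidney PBS, and *cyp4v2b* 1.17, 3.51, 2.01 and 3.12 in liver PBS and -3.64, 1.57, -1.79 and -4.89 in kidney PBS. Kidney PBS array 2 was the high one for both, and for *cyp4v2b* it overlapped the liver group. Liver was higher than kidney by 6.23 ± 1.53 for *cyp4v2a* (limma, adjusted p = 0.0354) and by 4.64 ± 1.2 for *cyp4v2b* (adjusted p = 0.045), and higher than muscle by 5.54 ± 1.53 (adjusted p = 0.0426) and 5.11 ± 1.2 (adjusted p = 0.019). Against kidney, *cyp4v2a* was called in 7 and *cyp4v2b* in 3 of the 12 fits without 1 array. *cyp4t8* was instead shared by liver and kidney. Its liver PBS arrays read 1.44, 3.93, 2.63 and 3.39, its kidney PBS arrays 2.38, 3.25, 1.46 and 3.60, and its muscle PBS arrays -2.41, -0.85, -3.78 and -1.52. Muscle lay below every other array, by 4.99 ± 0.73 from liver (adjusted p = 0.00138) and 4.81 ± 0.73 from kidney (adjusted p = 0.0025), while liver and kidney differed by 0.18 ± 0.73 (adjusted p = 0.919). *cyp2ad2* and *cyp2p6*, which lie in the same run of family 2 genes on the chromosome, had this pattern too: both were lower in muscle than in liver (by 5.58, adjusted p = 0.00248, and 3.81, adjusted p = 0.00149) and than in kidney (by 3.57, adjusted p = 0.0358, and 2.07, adjusted p = 0.0479). With the replicate block they were higher in liver than in kidney as well (adjusted p = 0.016 and 0.017). *cyp2ad2* was well above background on only 1 of 4 muscle PBS arrays, so the sizes of its muscle differences are uncertain.

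**Figure D2:**
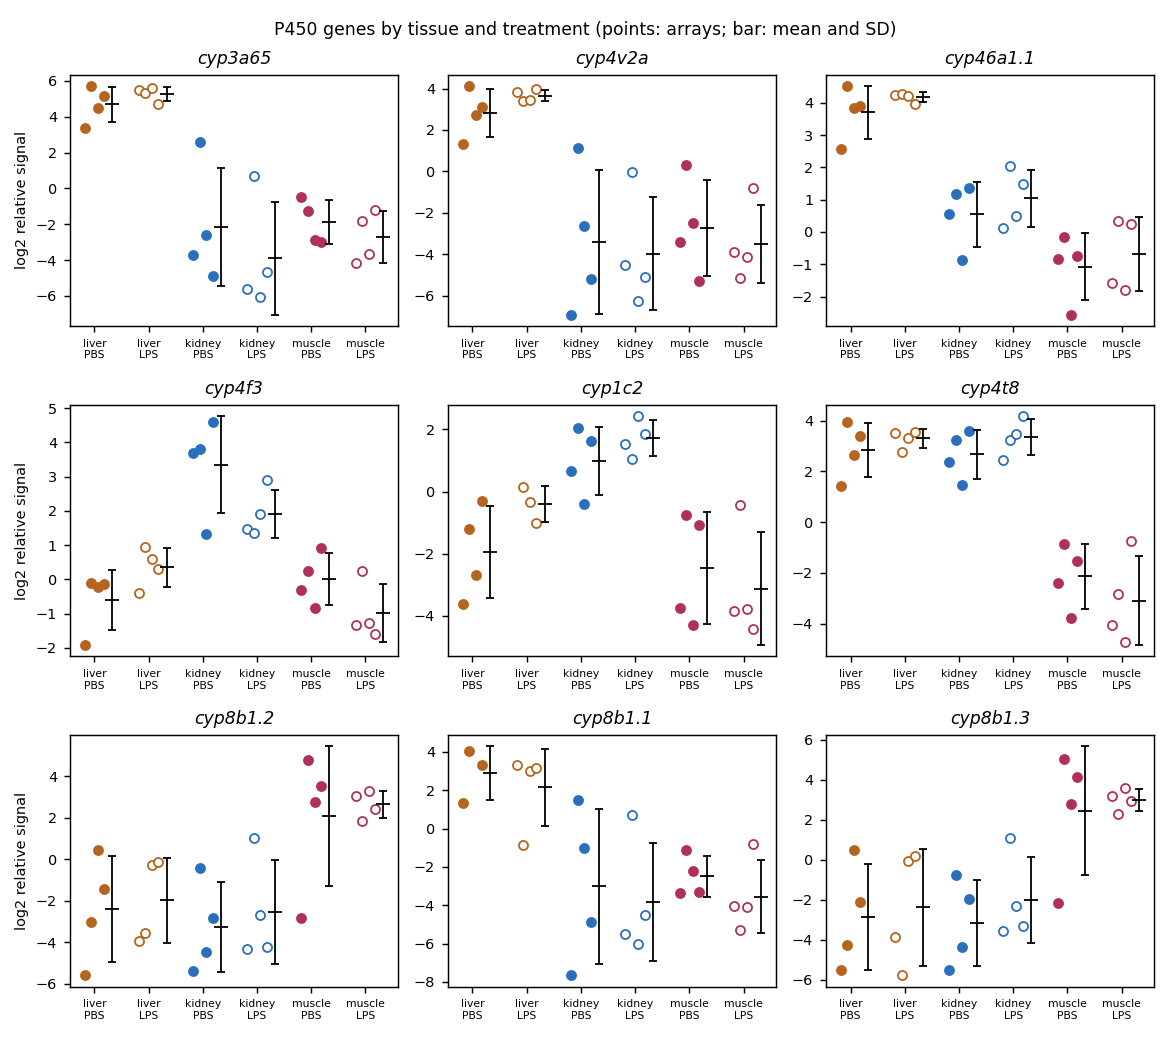
Relative signal (log2) of 9 genes on each array of liver, kidney and muscle, with filled points for PBS and open points for LPS. *cyp3a65* and *cyp46a1.1* are highest in liver, *cyp4f3* is highest in kidney PBS (1.32 to 4.59), and *cyp8b1.2* and *cyp8b1.3* are high on the muscle arrays but for muscle PBS array 1; bars give the mean and SD.

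The 5 *cyp46a1* genes, named after the human cholesterol 24-hydroxylase of neurons, lie in 2 runs on the genome and each had their highest PBS mean in liver. *cyp46a1.1* read 2.57, 4.52, 3.83 and 3.91 in liver PBS, 0.55, 1.17, -0.86 and 1.35 in kidney PBS and -0.83, -0.16, -2.56 and -0.74 in muscle PBS. Liver stood above all other arrays, by 3.15 ± 0.65 over kidney (limma, adjusted p = 0.014) and 4.78 ± 0.65 over muscle (adjusted p = 0.000871). *cyp46a1.2* gave nearly the same values, with a median difference from *cyp46a1.1* of 0.15 over the arrays and a largest of 0.28, and differed between tissues by 3.17 ± 0.66 (adjusted p = 0.0148) and 4.70 ± 0.66 (adjusted p = 0.00104). As the mean over its probes, the liver over kidney difference of *cyp46a1.2* was 2.26 ± 0.64 (limma, adjusted p = 0.0607). Of the 12 fits without 1 array, 9 called *cyp46a1.2* and 5 called *cyp46a1.5* between liver and kidney. Whether the probes of these copies bind separate RNAs was not tested. *cyp46a1.5* was higher in liver by 2.93 than in kidney (adjusted p = 0.0377) and by 5.91 than in muscle (adjusted p = 0.000471), and *cyp46a1.4* by 3.33 than in muscle (adjusted p = 0.0109). *cyp46a1.3*, not well above background on any muscle array, had the higher mean in liver than in muscle (mean -2.12 against -4.70 on 3 and 4 arrays, adjusted p = 0.0531, with the block 0.0055). The other *cyp46a1.3* probe was called between liver and muscle and between liver and kidney without the block. Kidney was higher than muscle for *cyp46a1.5* (2.98, adjusted p = 0.0277) and, with the replicate block, for *cyp46a1.4* (1.99, adjusted p = 0.133, with the block 0.01). Both genes were well above background on only 1 of 4 muscle PBS arrays, so the sizes of their muscle differences are uncertain.

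The 3 *cyp8b1* genes, which lie side by side and code for the sterol hydroxylase needed for cholic acid, did not share a tissue. *cyp8b1.1* read 1.34, 4.03 and 3.32 on the 3 liver PBS arrays that kept its spot, -7.64, 1.5, -1.01 and -4.87 in kidney PBS and -3.34, -1.09, -2.24 and -3.30 in muscle PBS. Its liver values lay above all muscle values, while kidney PBS array 2 reached into the liver range. The difference was 5.90 ± 1.72 against kidney (limma, adjusted p = 0.0654, with the replicate block 6.28 ± 1.1, adjusted p = 0.0059) and 5.39 ± 1.72 against muscle (adjusted p = 0.0854, with the block 5.76 ± 1.1, adjusted p = 0.0071). *cyp8b1.2* read -5.58, -3.02, 0.46 and -1.43 in liver PBS, -5.38, -0.42, -4.45 and -2.83 in kidney PBS, and -2.83, 4.79, 2.75 and 3.54 in muscle PBS. *cyp8b1.3* read -5.53, -4.29, 0.50 and -2.12, then -5.51, -0.79, -4.39 and -1.96, and then -2.17, 5.02, 2.80 and 4.14 in the same order. Both were high on 3 of 4 muscle PBS arrays and on none of the liver or kidney PBS arrays. Their liver minus muscle differences were -4.46 ± 1.67 (adjusted p = 0.138, with the block 0.017) and -5.31 ± 1.65 (adjusted p = 0.0713, with the block 0.01), and their kidney minus muscle differences -5.34 ± 1.67 (adjusted p = 0.0822, with the block 0.0077) and -5.61 ± 1.65 (adjusted p = 0.0632, with the block 0.0089). On the 4 muscle LPS arrays they read 1.82 to 3.29 and 2.28 to 3.57, above every liver LPS array.

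*cyp7a1* codes for the rate-limiting enzyme of bile acid synthesis, known as a liver gene. Its probe read -4.34, -2.65, -0.94 and -1.12 in liver PBS, -2.81, -0.0048, -2.94 and -1.31 in kidney PBS and 1.94, 5.57, 3.68 and 3.92 in muscle PBS. Every muscle PBS array lay above every liver and kidney PBS array, with a liver minus muscle difference of -6.04 ± 0.94 (limma, adjusted p = 0.00183) and a kidney minus muscle difference of -5.54 ± 0.94 (adjusted p = 0.00444). The other 2 probes for *cyp7a1* did not repeat this. The second gave a liver minus muscle difference of 1.24 (adjusted p = 0.628), the third was not well above background on any liver PBS array (adjusted p = 0.662), and both gave kidney minus muscle differences of 0.94 (adjusted p = 0.722) and -1.2 (adjusted p = 0.589). On the LPS arrays the second probe was higher in kidney than in muscle by 3.44 (adjusted p = 0.0214), against -2.63 (adjusted p = 0.0225) for the probe with the highest mean. *cyp51*, the demethylase of cholesterol synthesis, read 0.38, -2.64, -1.27 and 0.0009 in liver PBS, -4.62, -3.56, -4.55 and -2.09 in kidney PBS and -2.56, -1.42, -2.22 and 0.38 in muscle PBS. Kidney was the low tissue, with a liver over kidney difference of 2.82 ± 0.83 (adjusted p = 0.0654, with the block 0.015). Another probe of *cyp51* was called in this comparison without the block.

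**Figure D3:**
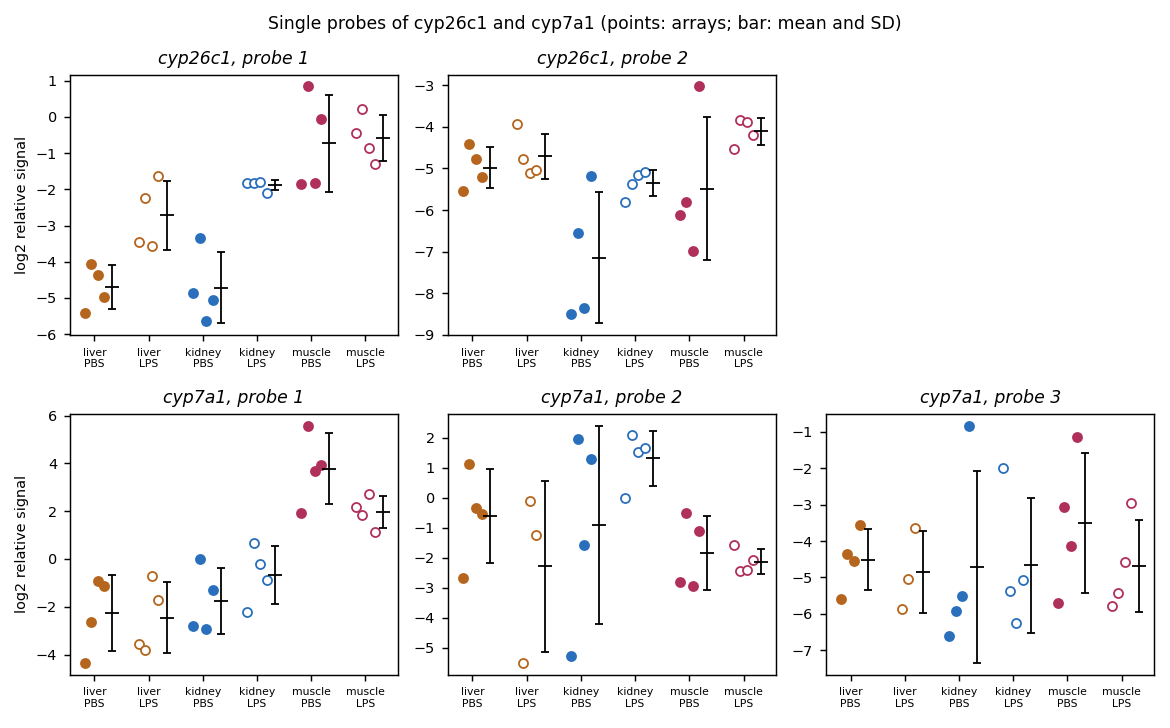
Relative signal (log2) on the PBS and LPS arrays of each tissue for the 2 probes of *cyp26c1* and the 3 probes of *cyp7a1*. Only 1 of the 3 *cyp7a1* probes is above 1 on all 8 muscle arrays, and the second *cyp26c1* probe stays at -3.03 or lower on every array.

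*cyp4f3*, named after the human leukotriene hydroxylase CYP4F3, was the gene called higher in kidney than in both other tissues. It read 3.71, 3.81, 1.32 and 4.59 in kidney PBS, -1.91, -0.11, -0.23 and -0.14 in liver PBS and -0.30, 0.25, -0.84 and 0.92 in muscle PBS. No kidney array overlapped another tissue, and kidney was higher than muscle by 3.35 ± 0.70 (limma, adjusted p = 0.0129), with a liver minus kidney difference of -3.95 ± 0.70 (adjusted p = 0.00519). The genes of family 1, best known as targets of the aryl hydrocarbon receptor, each had a pattern of their own. *cyp1b1* was not well above background on any liver PBS array (-5.53, -4.34, -3.56 and -5.20) and read -0.73, -0.47, -3.49 and -0.28 in kidney PBS and -3.32, 0.65, -2.0 and -1.31 in muscle PBS. Liver was the low tissue, at least 2.91-fold below kidney (mean -4.66 against -1.24, adjusted p = 0.0454) and at least 2.44-fold below muscle (mean -1.5, adjusted p = 0.0458). Its other 2 probes, well above background on 0 of 4 liver PBS arrays and at most 2 of 4 kidney or muscle PBS arrays, did not pass (adjusted p = 0.877 and 0.616 against kidney, 0.935 and 0.642 against muscle). As the mean over the 3 probes the liver minus kidney difference was -0.84 ± 0.73 (adjusted p = 0.495), normexp gave an adjusted p of 0.203, and the gene was called in 4 (against kidney) and 3 (against muscle) of the 12 fits without 1 array. *cyp1c2* read 0.67, 2.05, -0.39 and 1.64 in kidney PBS against -3.74, -0.77, -4.30 and -1.08 in muscle PBS and -3.63, -1.19, -2.70 and -0.31 in liver PBS. Kidney was above all muscle arrays (3.47 ± 0.94, adjusted p = 0.0457), and its advantage over liver passed with the replicate block (liver minus kidney -2.95 ± 0.94, adjusted p = 0.0654, with the block 0.0027). The other *cyp1c2* probe was called between liver and kidney without the block. *cyp1c1*, which lies next to *cyp1c2*, did not pass in any of the 3 tissue comparisons. *cyp1a*, the standard marker of exposure to dioxin-like compounds, read 2.94, 5.32, 4.09 and 5.03 in liver PBS, 3.97, 5.24, 2.85 and 4.99 in kidney PBS and 1.27, 4.17, 1.55 and 2.66 in muscle PBS. Its groups overlapped, and muscle was below liver (1.93 ± 0.76, adjusted p = 0.161) and kidney (1.85 ± 0.76, adjusted p = 0.204) only with the block (adjusted p = 0.012 and 0.017). *cyp1d1* was higher in liver than in muscle by 2.17 ± 0.62 (adjusted p = 0.049) and than in kidney by 2.27 ± 0.62 (adjusted p = 0.054, with the block 0.0057). The other 2 genes with their highest PBS mean in kidney, *cyp2k17* and *cyp2ad6*, had liver minus kidney differences of -0.75 ± 0.74 and -0.06 ± 0.73 (adjusted p = 0.578 and 0.974), and on the LPS arrays both had the higher mean in liver.

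*cyp26b1* and *cyp26c1*, which code for hydroxylases that clear retinoic acid, were highest in muscle. *cyp26b1* was not well above background on any liver array and read -1.73, -0.90, -3.69 and -1.27 in kidney PBS and -0.49, 3.30, 0.62 and 1.16 in muscle PBS. Muscle lay above every kidney array, with a kidney minus muscle difference of -3.04 ± 0.82 (limma, adjusted p = 0.0435), and was at least 15.3-fold above liver (mean 1.15 against -4.31, adjusted p = 0.00157). Kidney was at least 1.85-fold above liver (mean -1.90, adjusted p = 0.0711, with the block 0.024). Another *cyp26b1* probe was called between liver and kidney without the block. *cyp26c1* read -5.41, -4.06, -4.36 and -4.99 in liver PBS, with no array well above background, then -4.85, -3.33, -5.63 and -5.07 in kidney PBS and -1.87, 0.85, -1.81 and -0.06 in muscle PBS. Muscle was again clear of both, at least 4.18-fold above liver (mean -0.72 against -4.71, adjusted p = 0.00316) and with a kidney minus muscle difference of -4.0 ± 0.68 (adjusted p = 0.00463). The second *cyp26c1* probe was well above background on 1 of 12 PBS arrays and did not pass in either comparison (adjusted p = 0.782 for liver against muscle and 0.33 for kidney against muscle). *cyp26a1*, of the same family of hydroxylases, read 2.36, -0.73, 1.62 and 0.98 in liver PBS, 1.16, -2.03, 2.21 and -4.19 in kidney PBS and 2.22, 2.63, 2.46 and 1.58 in muscle PBS. The 2 low kidney arrays were those with oocyte markers at -2.66 and -2.88, and the 2 high ones those at 3.36 and 4.04, and the part of these markers was not tested. *cyp24a1*, which inactivates the vitamin D hormone, read -1.38, 3.43, 1.24 and 2.58 in liver PBS, -0.33, 1.38, -1.28 and 0.47 in kidney PBS and 0.52, 2.40, 1.12 and 2.21 in muscle PBS. Its groups overlapped and it passed in none of the 3 comparisons. *cyp27b1* and *cyp2r1*, which make the vitamin D hormone, were not paired with a probe by name, and neither were *cyp27a1.1*, *cyp11a1.2* and *cyp21a2*.

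None of the 6 steroid hormone genes passed between tissues of the PBS fish without the replicate block. *cyp11a1.1*, the cholesterol side-chain cleavage enzyme, read 3.58, -0.08 and 1.78 on the 3 liver PBS arrays that kept its spot, 2.42, -3.85, 4.24 and -1.36 in kidney PBS and 3.80, -0.21, 4.19 and 1.38 in muscle PBS. Its liver over kidney difference was 1.40 ± 1.76 (limma, adjusted p = 0.684, with the block 2.36 ± 0.61, adjusted p = 0.026). *cyp17a1*, on the way to androgens and oestrogens, read 2.57, -2.54, 0.95 and -0.07 in liver PBS, 1.76, -3.75, 2.12 and -5.24 in kidney PBS and 2.11, 1.94, 2.88 and 0.28 in muscle PBS. Arrays 2 and 4 were the low ones for *cyp11a1.1* in kidney and muscle and for *cyp17a1* in liver and kidney. The oocyte markers were lowest on the arrays of the same numbers, at 0.11 and 2.20 in liver PBS, -2.66 and -2.88 in kidney PBS and 0.27 and 2.13 in muscle PBS. Their part in these values was not tested. *cyp11c1*, which makes cortisol, read 1.17 on kidney PBS array 4, where the steroidogenic markers (3 of 4 found) were at 3.75, and -5.09, -3.72 and -5.26 on the other kidney PBS arrays, where these markers were at -1.54 to -0.71. Kidney PBS array 4 stood alone. The highest muscle values of *cyp11c1*, 0.71 on muscle PBS array 4 and 1.29 on muscle LPS array 2, also came with steroidogenic markers above 0 (0.64 and 1.13). The ovarian aromatase gene *cyp19a1a* was well above background on 10 of 24 arrays and the brain aromatase gene *cyp19a1b* on 2 of 24, none of them in liver or kidney PBS, where its comparison passed with the block (adjusted p = 0.031) but has no fold.

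**Figure D4:**
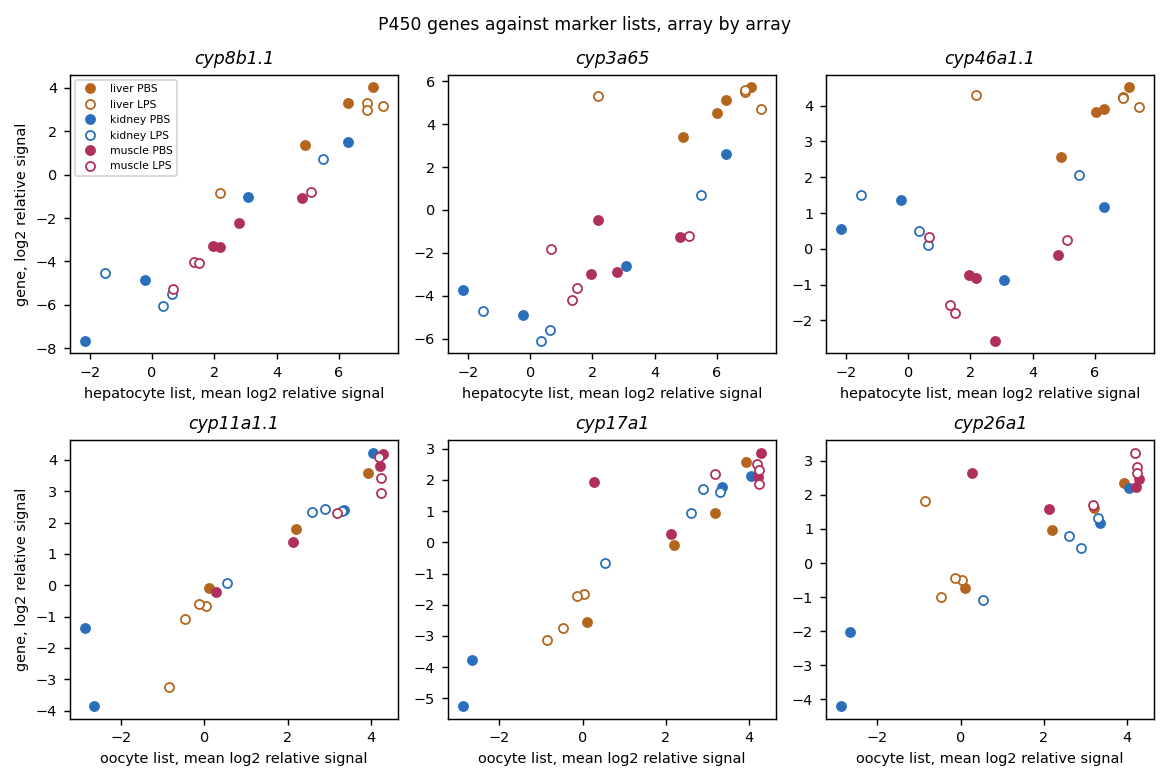
Relative signal (log2) of *cyp8b1.1*, *cyp3a65* and *cyp46a1.1* against the mean of the hepatocyte markers, and of *cyp11a1.1*, *cyp17a1* and *cyp26a1* against the mean of the oocyte markers, with 1 point per array. Kidney PBS array 2 and kidney LPS array 2, with hepatocyte markers at 6.29 and 5.49, are the kidney arrays where *cyp3a65* reached 2.61 and 0.71. On liver LPS array 2, with hepatocyte markers at 2.18, *cyp3a65* was at 5.32.

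LPS lowered or raised no P450 gene at the adjusted threshold in any tissue. After the filter on the raw signal, 64 of the 65 genes were tested in each tissue (*cyp3a65* was left out in liver, where it was too bright, and *cyp39a1* in kidney and muscle, where it was too dim), and limma called 0 of 64 in liver (0.525% of all genes tested were called in either direction), 0 of 64 in kidney (0.075%) and 0 of 64 in muscle (0%). No other probe of these genes was called. At an unadjusted p under 0.05, 6 were higher and 2 lower in liver (7.19% and 11.5% of all genes), 3 higher and 2 lower in kidney (3.47% and 2.83%) and 0 higher and 2 lower in muscle (0.819% and 1.69%). Of 3 genes known to respond to LPS (*il1b*, *nfkbiaa* and *cxcl18b*), 3 were called higher in liver, 2 in kidney and 0 in muscle. The interleukin gene *il1b* rose by 5.53 in liver (adjusted p = 0.00238) and 7.13 in kidney (adjusted p = 0.0107), and its difference in muscle was 3.32 (adjusted p = 0.916). The mean of 50 genes was higher and that of 14 lower after LPS in liver, with a median difference of 0.46 (0.04 over all genes). In kidney 38 were higher and 26 lower (median 0.21, -0.02 over all genes), and in muscle 22 were higher and 42 lower (median -0.23, -0.09 over all genes). On the slides that held arrays of both treatments, the median of the P450 genes differed by 0.25 in liver (1 LPS against 3 PBS arrays), -0.28 in kidney (3 against 1) and -1.40 and -0.19 in muscle (1 against 1 and 2 against 2). The median SE of a single gene was 0.60 in liver, 0.67 in kidney and 0.66 in muscle.

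**Figure D5:**
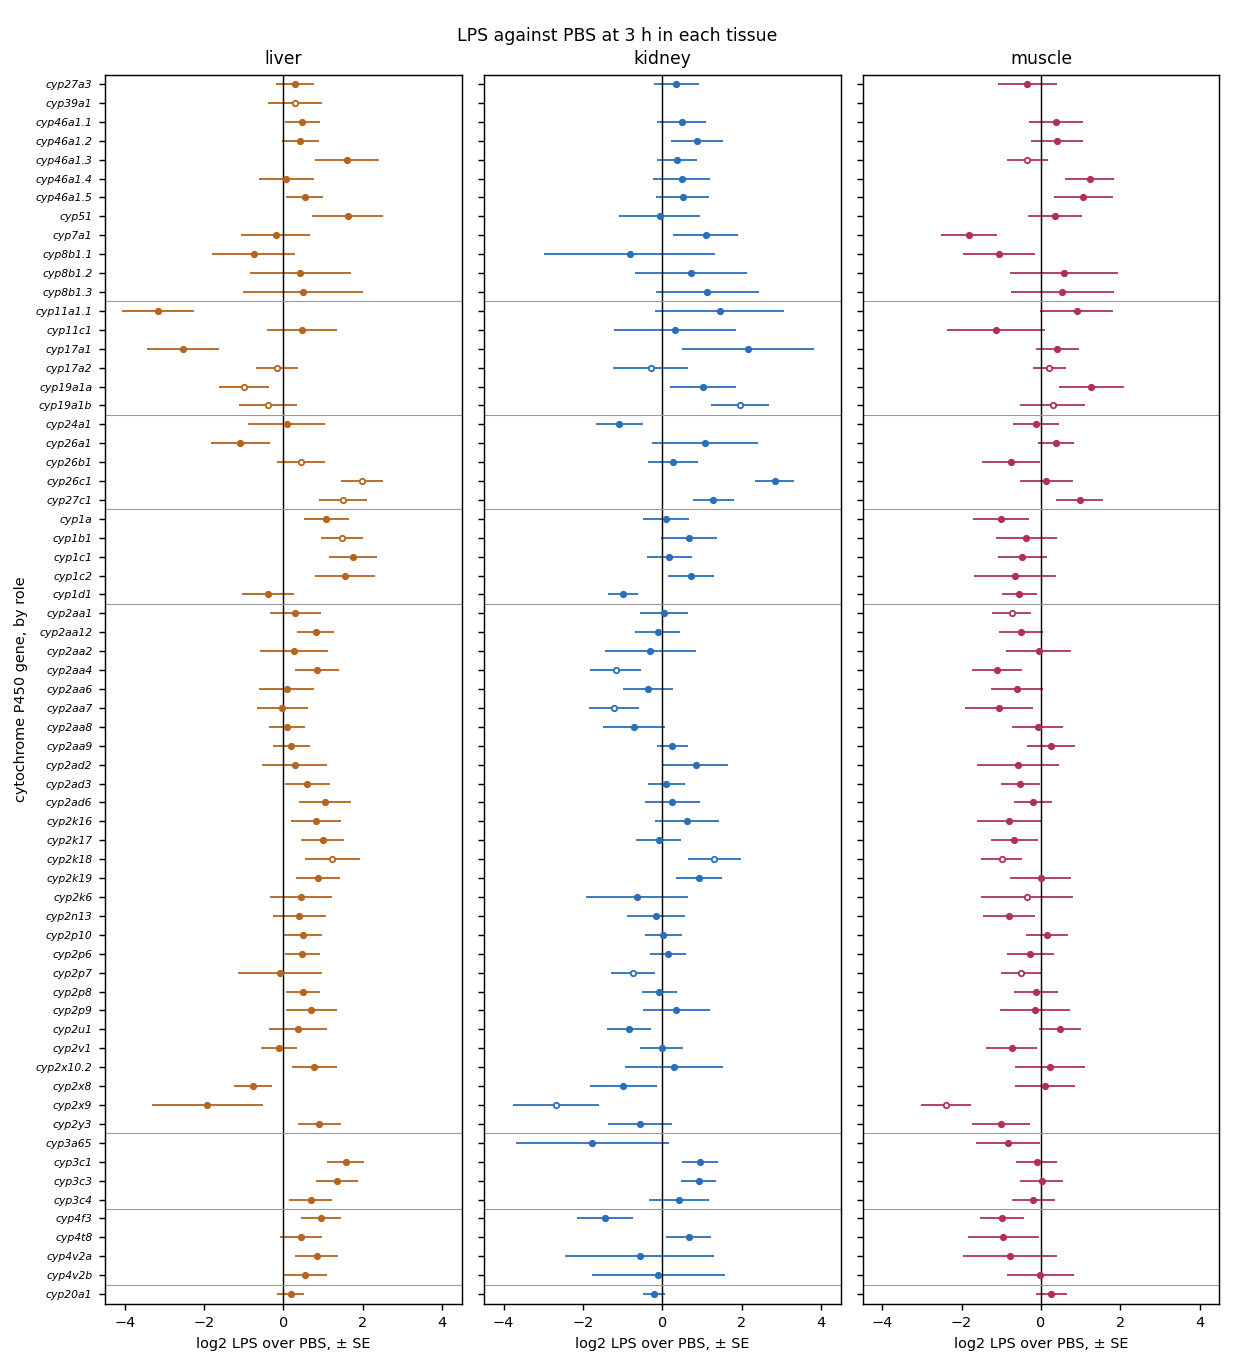
Difference in relative signal between LPS and PBS arrays (log2, with SE) for each P450 gene in liver, kidney and muscle, with hollow points where no array of 1 or both groups was well above background. No gene passed the adjusted threshold, and the liver points are centred at 0.46 and the muscle points at -0.23.

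By role, the median LPS difference in liver was 1.48 for family 1, 1.34 for family 3, 0.69 for family 4, 0.46 for family 2, 0.44 for vitamin A and D, 0.43 for sterol and bile acid metabolism and -0.69 for steroid hormones. In kidney the same medians were 0.18, 0.67, -0.33, -0.08, 1.08, 0.49 and 1.24, and in muscle -0.54, -0.15, -0.87, -0.50, 0.13, 0.38 and 0.35. In muscle 23 of 28 genes of family 2, 4 of 4 of family 4 and 5 of 5 of family 1 had the lower mean after LPS. In liver these were 5 of 28, 0 of 4 and 1 of 5, and neither count was made over all genes. Of the 23, *cyp2aa1*, *cyp2aa2*, *cyp2ad2*, *cyp2ad6*, *cyp2k18*, *cyp2k6*, *cyp2p7* and *cyp2x9* were well above background on at most 1 of 4 arrays in each muscle group. The lowest signal well above background was -4.84 to -3.68 on muscle PBS arrays and -5.28 to -4.35 on muscle LPS arrays. Of the 63 genes tested in all 3 tissues, 6 had a lower mean after LPS in each tissue (*cyp1d1*, *cyp2aa7*, *cyp2p7*, *cyp2v1*, *cyp2x9* and *cyp8b1.1*), 12 a higher mean in each, and 45 were mixed. None of these passed the test in any tissue.

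In liver, the lower means were led by steroid hormone genes. *cyp11a1.1* read 3.58, -0.08 and 1.78 on the PBS arrays and -0.67, -0.59, -1.09 and -3.23 on the LPS arrays. All LPS values lay below all PBS values, with a difference of -3.15 ± 0.91 on 4 against 3 arrays (limma, adjusted p = 0.147). *cyp17a1* read 2.57, -2.54, 0.95 and -0.07 on the PBS arrays and -1.65, -1.72, -2.74 and -3.12 on the LPS arrays, which overlapped, with a difference of -2.53 ± 0.91 (adjusted p = 0.215). The oocyte markers moved with both: they were at 3.94, 0.11, 3.20 and 2.20 in liver PBS and at 0.03, -0.14, -0.47 and -0.85 in liver LPS. On the slide that held liver LPS array 1 and liver PBS arrays 2 to 4 the differences were -1.52 and -1.09. With the oocyte level as a covariate the difference of *cyp11a1.1* was -0.54 (adjusted p = 0.927) and the sign turned for *cyp17a1* (1.03), *cyp3c3* (-0.12) and *cyp1c2* (-0.06). The oocyte levels of the liver PBS and LPS arrays did not overlap, so this fit cannot tell them apart from the treatment. Without liver PBS array 2 *cyp11a1.1*, *cyp17a1*, *cyp26c1* and *cyp3c1* passed (adjusted p = 0.0257, 0.0154, 0.0498 and 0.0402). These were 4 of 64 genes in a fit that called 7.87% of all genes.

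Among the higher means in liver, *cyp26c1*, *cyp3c1* and *cyp1c1* had the smallest p. *cyp26c1* read -5.41, -4.06, -4.36 and -4.99 on the PBS arrays, with none well above background, and -3.45, -2.23, -3.57 and -1.63 on the LPS arrays, with 2 well above it. All LPS values were higher (mean -2.72 against -4.71, adjusted p = 0.118), with no fold given, while the second probe was not well above background on any liver array (adjusted p = 0.854). *cyp3c1* read 1.61, 3.61, 2.61 and 3.03 on the PBS arrays and 4.40, 3.88, 4.22 and 4.65 on the LPS arrays. It too did not overlap (1.57 ± 0.47, adjusted p = 0.147), and *cyp3c3*, whose values lay within a median of 0.29 of it, differed by 1.34 ± 0.53 (adjusted p = 0.26). *cyp1c1* read -3.35, -0.80, -1.72 and -0.53 on the PBS arrays and 0.0048, 0.0108, 0.76 and -0.16 on the LPS arrays, all higher (1.75 ± 0.60, adjusted p = 0.195). Within the slide of both treatments *cyp3c1* differed by 1.32 and *cyp1c1* by 1.02. *cyp1c2* (1.56 ± 0.76 on 3 against 4 arrays, adjusted p = 0.375), *cyp1a* (1.09 ± 0.56, adjusted p = 0.401) and *cyp46a1.3* (1.60 ± 0.81 on 4 against 3 arrays, adjusted p = 0.399) overlapped between the treatments. *cyp1b1* and the retinol desaturase gene *cyp27c1* were not well above background on any liver PBS array and had adjusted p = 0.214 and 0.274. The differences of *cyp8b1.1* and *cyp7a1*, of bile acid synthesis, lay within their SE. *cyp8b1.1* differed by -0.75 ± 1.05 on 4 against 3 arrays (adjusted p = 0.828), with -0.86 on liver LPS array 2, where hepatocyte markers were at 2.18, against 2.98 to 3.29 on the other 3, and *cyp7a1* by -0.20 ± 0.88 (adjusted p = 0.998). *cyp3a65*, left out of the test, had overlapping groups (3.38 to 5.72 in PBS and 4.72 to 5.58 in LPS). *cyp51* (1.62 ± 0.90, adjusted p = 0.443), *cyp24a1* (0.08 ± 0.97, adjusted p = 1) and *cyp26a1* (-1.08 ± 0.76, adjusted p = 0.556) did not pass either.

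In kidney, *cyp26c1* had the largest difference. It read -4.85, -3.33, -5.63 and -5.07 on the PBS arrays and -1.83, -1.83, -1.79 and -2.09 on the LPS arrays. All LPS values were higher, with a difference of 2.84 ± 0.49 (limma, adjusted p = 0.162), and in a fit of all 24 arrays in 6 groups the gene passed (adjusted p = 0.0334, with 0.358% of all genes called). It was not well above background on kidney PBS array 4, the only PBS array on a slide with kidney LPS arrays, so no within-slide difference is given. The second probe, not well above background on any kidney array, had an adjusted p of 0.555. *cyp1d1* read -2.35, -1.0, -1.49 and -2.09 on the PBS arrays and -2.55, -2.47, -2.90 and -2.96 on the LPS arrays. All LPS values were lower, with a difference of -0.99 ± 0.37 (adjusted p = 0.555, and -0.55 within the slide). *cyp4f3* read 3.71, 3.81, 1.32 and 4.59 on the PBS arrays and 1.47, 1.36, 1.90 and 2.91 on the LPS arrays. The groups overlapped through kidney PBS array 3 (-1.45 ± 0.71, adjusted p = 0.555, and -3.01 within the slide), and on the LPS arrays kidney was still above muscle by 2.89 ± 0.48 (adjusted p = 0.00108). *cyp2x9* read -4.27, 1.2, -3.61 and -1.99 on the PBS arrays and was not well above background on any LPS array, at least 2.50-fold lower (mean -4.85 against -2.17, adjusted p = 0.555). Its highest PBS value was on the array with hepatocyte markers at 6.29. *cyp2aa7* (mean -4.52 against -3.31, adjusted p = 0.567) and *cyp2aa4* (mean -3.85 against -2.67, adjusted p = 0.596) had the lower mean after LPS. Neither was well above background on any LPS array or on all PBS arrays, so they have no fold. *cyp27c1* (1.29 ± 0.52, adjusted p = 0.555), *cyp3c1* (0.96 ± 0.45, adjusted p = 0.555, and 0.18 within the slide) and *cyp3c3* (0.92 ± 0.44, adjusted p = 0.555, and -0.31 as the mean over its probes) overlapped between the treatments. *cyp27c1* was well above background on 3 of 4 PBS arrays but 1 of 4 LPS arrays, so the size of its difference is uncertain. The lowest signal well above background was -4.20 to -2.94 on the kidney LPS arrays. *cyp19a1b* and *cyp2k18* were not well above background on any kidney array and have no fold (adjusted p = 0.555 and 0.56). With the oocyte level as a covariate 4 of 64 genes passed in kidney (*cyp19a1b*, *cyp26c1*, *cyp2k18* and *cyp3c1*), in a fit that called 8.91% of all genes.

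In muscle, *cyp2x9* was the only one of the 64 genes whose treatments did not overlap (in 1.48% of all genes tested every LPS value lay below every PBS value). It read -3.69, -2.49, -4.72 and -5.70 on the PBS arrays, with 1 well above background, and -6.50, -6.43, -6.91 and -6.35 on the LPS arrays, with none (mean -6.55 against -4.15, limma, adjusted p = 0.916). With only 1 PBS array well above background, *cyp2x9* has no fold here. *cyp7a1* read 1.94, 5.57, 3.68 and 3.92 on the PBS arrays and 2.18, 1.83, 2.70 and 1.13 on the LPS arrays. Its groups overlapped through muscle PBS array 1 (-1.82 ± 0.71, adjusted p = 0.916), and the differences of its other probes were -0.29 and -1.18 (adjusted p = 0.943 and 0.916). *cyp46a1.4* (1.23 ± 0.62), *cyp19a1a* (1.27 ± 0.83), *cyp46a1.5* (1.07 ± 0.74), *cyp27c1* (0.98 ± 0.60), *cyp4f3* (-0.99 ± 0.55) and *cyp2aa4* (-1.1 ± 0.63) overlapped as well, with an adjusted p of 0.916 for each. *cyp2k18* and *cyp2aa1* were not well above background on any muscle array and have no fold (adjusted p = 0.916 for both).

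The LPS effect in liver was then set against that in kidney with an interaction term over all 24 arrays. None of the 65 genes passed (0% of all genes did), and 4 had an unadjusted p under 0.05 (7.7% of all genes). These were *cyp4f3*, with a liver minus kidney difference of the LPS effects of 2.40 ± 0.87, *cyp17a1* (-4.71 ± 1.76), *cyp11a1.1* (-4.60 ± 1.94) and *cyp2aa4*, which was not well above background in kidney LPS. The adjusted p was 0.538 for each. The oocyte markers had a median LPS difference of -2.71 in liver and 1.95 in kidney. Their part in the differences of *cyp17a1* and *cyp11a1.1* was not tested.

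No partner, activator or regulator of P450 enzymes that was tested passed the threshold after LPS. Of all genes tested, 0.525% did in liver, 0.075% in kidney and 0% in muscle. Of 12 listed partners and activators 9 were found on the array. They were electron carriers, genes of haem synthesis and breakdown, and *pgrmc1* and *pgrmc2*. Of these, 0 of the 7, 8 and 8 tested in liver, kidney and muscle were called (median differences -0.51, -0.17 and -0.70). Single differences ran from -2.84 to 1.04 in liver, -2.18 to 0.21 in kidney and -1.65 to -0.11 in muscle. Of 24 listed regulators 20 were found, and 0 of the 19, 18 and 19 tested were called (median differences 0.45, 0.08 and -0.13). Their single differences ran from -1.26 to 2.39 in liver, -1.75 to 1.73 in kidney and -0.83 to 1.12 in muscle. Between tissues of the PBS fish, *cyb5a*, the electron donor cytochrome b5, was higher in liver than in kidney by 2.27 ± 0.57 (limma, adjusted p = 0.0406) and than in muscle by 3.41 (adjusted p = 0.00285), and the haem oxygenase gene *hmox1a* was higher in liver than in muscle by 4.73 (adjusted p = 0.000945) and in kidney than in muscle by 3.11 (adjusted p = 0.0128). Among the regulators, *hnf4a*, named as a hepatocyte nuclear factor, was not well above background on any muscle PBS array. It was at least 20.7-fold above muscle in liver (mean 0.27 against -5.60, limma, adjusted p = 0.000305) and at least 6.50-fold in kidney (mean -1.40, adjusted p = 0.00334). *foxa2* was higher in liver than in kidney (5.01, adjusted p = 0.0424) and muscle (5.13, adjusted p = 0.0261). The bile acid receptor gene *nr1h4* was higher in liver than in muscle (2.92, adjusted p = 0.0228). The repressor of the aryl hydrocarbon receptor, *ahrra*, was called lower in liver and kidney than in muscle. It was not well above background on any liver PBS array and at least 3.55-fold lower there (mean -4.52 against -0.96, adjusted p = 0.00679), with a kidney minus muscle difference of -3.11 (adjusted p = 0.0184).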

How the data were processed

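RNA of liver, kidney and muscle pools was hybridised by the authors to one-colour Agilent zebrafish arrays. The deposited scanner files hold processed, median and background intensity for 43803 spots, and the authors' deposited table holds the same arrays as log2 values, which matched the values used here within 0.01 for 100% of the 35763 probes with no missing value, once each probe was centred on its mean. The software version and scanner named in the methods differ from those in the file headers. Probes were named through their accessions with an annotation of another assembly, so no coordinates are given: 25069 of 43603 probes had a symbol. The log2 processed signal was shifted by the 75th percentile of each array, and outlier spots were left out.

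Differences were tested with limma 3.58.1 in R 4.3.3, with Benjamini-Hochberg adjustment over all probes tested, two-sided, at 0.05. LPS comparisons used the 8 arrays of a tissue and probes whose raw signal lay between the 20th and 95th percentile on at least 1 array, and tissue comparisons used the 12 PBS arrays with no filter, as did the interaction over 24 arrays. Named genes were, for LPS in each tissue, the 10 that passed with the greatest change, filled up by smallest p (all 10, since none passed); among PBS arrays, the 10 with the largest liver over kidney difference of those highest in liver, up to 10 of those highest in kidney by kidney over liver difference, and up to 5 of those highest in muscle; and genes fixed by role. The replicate numbers were taken to pair the PBS tissues because all 4 same-number correlations were above 0.1 in each pair of tissues, which comes from the data, since no label ties a number to a pool. Kidney PBS and kidney LPS arrays, from different fish, met the same rule. A fold called "at least" sets the bright group's mean against the higher, on each array, of the dim probe and the lowest signal well above background. No such fold is given where the bright group also held an array not well above background. P-values measure the spread between pools. The scripts were tested on simulated data. The genes, lists and named roles were chosen with earlier results of these data known. No P450 sequences were used here.

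Alternatives were quantile normalization, a 50th percentile shift, background correction by normexp on median signals, the authors' table, other filters, a stricter threshold, slide, scan day, replicate and pool as blocks, an oocyte covariate, the mean over probes and leaving out each array. Scan day, slide as a random block in the tissue comparisons and keeping outlier spots were added after seeing the data.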

Additional observations from a re-analysis of the deposited data

Results flagged for a closer look

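In 89 groups of 4 arrays of the named genes, 5 held an array far from the other 3 by Dixon's test (5.62%, where chance gives about 1 in 20). *cyp26c1* read -2.09 on kidney LPS array 4 against -1.83 to -1.79 on the other 3, a narrow group in all. *cyp2aa7* read -3.12 on kidney LPS array 4 against -5.14 to -4.82, with none of the 4 well above background. *cyp46a1.4* read -4.91 on muscle PBS array 3 against -3.35 to -3.05. *cyp4f3* read -1.91 on liver PBS array 1 against -0.23 to -0.11. *cyp1b1* read -3.49 on kidney PBS array 3 against -0.73 to -0.28.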

How the results depend on the processing

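For liver against kidney among the PBS arrays, the 11 calls became 30 with a 50th percentile shift, 37 with the replicate block, 36 with the pool as a random block, 30 in a fit of all 24 arrays, 37 on the LPS arrays, 3 at 0.01, 6 with slide as a random block and 0 with scan day as a fixed block, which leaves kidney PBS array 4 as the only kidney array on a day shared with liver. Over all probes the 2151 calls became 10065, 11179, 11954, 10555, 8646, 919, 1264 and 403. Leaving out 1 array gave 4 to 20. For liver against muscle, the 31 calls became 53 on the LPS arrays and 19 at 0.01 (over all probes 3545 became 24816 and 1758), and 23 to 31 without 1 array. For kidney against muscle, the 9 calls became 16 with the 50th percentile shift, 4 with normexp, 23 with the replicate block, 24 with the pool as a random block, 15 in the fit of all 24 arrays, 30 on the LPS arrays, 3 at 0.01 and 5 with slide as a random block (over all probes 2894 became 3937, 1141, 5959, 6098, 5368, 12719, 1098 and 1997), and 4 to 14 without 1 array. Which arrays move these counts is given above; the causes were not tested.

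For LPS in liver, 0 calls held except without liver PBS array 2 (4 calls; 0 to 4 over all fits without 1 array), and the median of 0.46 became -0.69 with the oocyte covariate (0.08 to 0.74 without 1 array). With that covariate *cyp17a1* was at 1.03, *cyp3c3* at -0.12 and *cyp1c2* at -0.058. In liver the oocyte level did not overlap between the treatments and cannot be told apart from LPS. In kidney there was 1 call in the fit of all 24 arrays (*cyp26c1*) and 4 with the oocyte covariate (*cyp19a1b*, *cyp26c1*, *cyp2k18* and *cyp3c1*), and the median ran from -0.11 to 0.54 without 1 array, with -0.28 for slide and -0.18 for scan day as a fixed block. *cyp19a1b* and *cyp2k18* turned to -0.037 and -0.47 with slide as a fixed block, *cyp2k18* and *cyp2aa7* to -0.32 and 0.17 with scan day, and *cyp3c3* to -0.31 as a mean over probes. In muscle no call was made under any alternative, and the median ran from -0.42 to 0.05 without 1 array, with -0.65 for slide as a fixed block and 0.11 for the oocyte covariate. In the tissue comparison *cyp2ad6* turned to 0.12 with the 50th percentile shift, 0.31 with normexp, 0.73 on the LPS arrays, 0.73 with scan day and ran from -0.67 to 0.52 without 1 array, and *cyp2k17* to 0.33 on the LPS arrays and 0.72 as a mean over probes. With the replicate numbers as a block in the LPS comparisons 0 genes were called. Of the 495 values of named genes in the tissue comparisons, 394 kept their side of the threshold and direction. The number of pools, 4 a group, limits the precision.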
